A study of Mus musculus with 4 samples.

Results

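Sox1, Sox2, Sox3, Sox21, Pou3f1, Pou3f2, Pou3f3, Rfx4, Hes5 and Fabp7 are genes by which neural progenitor cells are recognised, and their RNA was followed in mouse somitic gastruloids from which the ZEB2 protein was to be removed. They were taken by symbol, and all 10 were found among the 24831 genes listed in each of the 4 deposited count tables. Somitic gastruloids are aggregates of embryonic stem cells that elongate and form somite-like segments in culture. Every aggregate came from the E14 triple reporter line, whose own Zeb2 gene carries an HA and FKBP12F36V degron tag, so that the untreated group has the tagged allele as well. The tagged protein is marked for destruction by the small molecule dTAG-13.

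The dTAG13 group (2 libraries, replicates 1 and 2) had 100 nM of the compound at 72 h and at 96 h. The untreated group (2 libraries, replicates 1 and 2) had none, and DMSO is given as the control. In all groups aggregates began with 300 sorted cells, were given 3 μM CHIR99021, a WNT pathway activator, after 48 h, and were moved into 10% Matrigel at 96 h. Nothing in the labels tells whether the line is 1 clone or whether replicates are separate cultures, so p-values reflect no more than how far these 4 libraries vary, possibly for technical reasons. Between 11491330 and 12716172 reads per library were counted in genes. Reads outside annotated genes made up 25.3% and 29.2% in dTAG13 replicates 1 and 2, against 35.7% and 24.1% in untreated replicates 1 and 2. Zeb2 mRNA stood at 103 and 108 CPM (reads scaled to the TMM library size) in dTAG13 libraries, against 98.3 and 164 CPM in untreated libraries; the compound acts on the protein, so this does not check the labels.

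SOX1, SOX2 and SOX3 are the SOXB1 factors, which bind DNA through an HMG box and hold neural progenitors in an undifferentiated, dividing state. SOX21, of the related SOXB2 group, works against them and favours differentiation. The POU3F proteins, also called OCT6, BRN2 and BRN1, bind next to SOX factors at neural enhancers. RFX4 is a winged helix factor needed for dorsoventral patterning of the mouse neural tube and for cilia, HES5 is a repressor switched on by NOTCH that delays neuron formation, and FABP7 is a fatty acid binding protein of radial glia. Sox2 and Pou3f1 are also expressed in pluripotent or epiblast cells, and Sox2 in neuromesodermal progenitors and foregut, so neither marks neural cells alone.

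In GENCODE M21 (GRCm38) 7 of the 10 genes have all exons in a single block, namely the 4 SOX and the 3 POU genes, whereas 3.05% of the tested genes found in that annotation do (405 of 13259). Rfx4 (chromosome 10, 84756062 to 84906538, plus strand) has 22 exon blocks, Hes5 (chromosome 4, 154960923 to 154962371, plus strand) has 2 and Fabp7 (chromosome 10, 57784881 to 57788450, plus strand) has 4. Sox1 is at 12395295 to 12400126 on chromosome 8, Sox2 at 34650405 to 34652461 on chromosome 3, Sox3 at 60891366 to 60893430 on chromosome X and Sox21 at 118233232 to 118237030 on chromosome 14. Pou3f2 (22482780 to 22488366) and Pou3f1 (124656807 to 124660655) share chromosome 4, and Pou3f3 is on chromosome 1 (42695768 to 42703176). A gene on the opposite strand covers 31.8% of the exonic bases of Hes5, 18.8% of those of Sox21 and 8.57% of those of Pou3f1. No source used here gives the strand setting of the counting, so reads within those shared bases cannot be told apart from reads of the partners. None of these partners is listed among the counted genes. Sox1 shares 1.78% of its exonic bases with a microRNA gene on the same strand, which is not listed either.

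Sequence before the start site is shown for Rfx4, Hes5 and Pou3f2, which had the largest differences between the groups and whose start sites nearly coincide in RefSeq and GENCODE. These are the 250 bases before the RefSeq start in GRCm38.p6, read 5′ to 3′ on the strand of the gene. Capitals mark matches, on either strand, to 4 motifs. These were CACCTG (the E-box bound by ZEB factors), GTGGGAA (RBPJ, the DNA-binding partner of NOTCH), CATTGT (SOX) and GTTGCC (part of the RFX site).
Rfx4, chr10:84755798-84756047 (+ strand): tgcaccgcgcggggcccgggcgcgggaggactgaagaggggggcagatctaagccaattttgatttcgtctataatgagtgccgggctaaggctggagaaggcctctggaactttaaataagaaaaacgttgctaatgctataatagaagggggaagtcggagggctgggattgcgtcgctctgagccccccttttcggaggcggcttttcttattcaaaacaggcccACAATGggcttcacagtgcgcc
Hes5, chr4:154960673-154960922 (+ strand): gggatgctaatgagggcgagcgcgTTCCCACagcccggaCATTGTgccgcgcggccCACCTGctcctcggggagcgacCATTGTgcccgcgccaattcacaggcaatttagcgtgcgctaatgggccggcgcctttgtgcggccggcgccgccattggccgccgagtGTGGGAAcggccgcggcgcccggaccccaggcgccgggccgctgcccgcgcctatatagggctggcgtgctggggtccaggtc
Pou3f2, chr4:22488367-22488616 (- strand): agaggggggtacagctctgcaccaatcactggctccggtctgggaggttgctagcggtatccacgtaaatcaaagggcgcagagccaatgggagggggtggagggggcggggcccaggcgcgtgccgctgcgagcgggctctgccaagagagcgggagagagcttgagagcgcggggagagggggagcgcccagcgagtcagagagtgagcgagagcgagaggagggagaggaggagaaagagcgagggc

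Hes5 held 1 ZEB E-box, 2 RBPJ matches and 2 SOX matches, none overlapping another. Over all 32851 RefSeq windows of this length, 17.2% held the E-box, 5.42% the RBPJ motif, 10.7% the SOX motif and 10.4% the RFX letters. Rfx4 held 1 SOX match just before the start shown, and its other RefSeq window, before a start inside the gene (chr10:84837898-84838147), had no match to any motif. Pou3f2 had none of these letters in its window. A window was found for 8 of the 10 genes. Among the others, Sox1, Sox2, Sox21, Pou3f3 and Fabp7 had no match, and Sox3 and Pou3f1 had no entry. A match describes letters and does not show that a factor binds.

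The comparison of dTAG13 with untreated gastruloids asked how these genes stood once ZEB2 was targeted. A log2 fold change below 0 was found for 9 of the 10 members, against 49.1% of the 13602 genes with enough reads to be tested. All 10 members passed that filter on low counts. The dTAG13 library was the lower of the pair in both replicate numbers for 9 members, which held for 23.9% of all tested genes. Both dTAG13 libraries lay below both untreated libraries for 5 members (Sox1, Pou3f2, Rfx4, Hes5 and Fabp7), a pattern found in 11.9% of genes. The median log2 fold change of the 10 was -0.89, beside 0.00 over all genes tested.

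No member passed an adjusted p of 0.05 in edgeR's quasi-likelihood test, where 0% of genes passed (0 of 13602). At an unadjusted p under 0.05 edgeR counted 479 genes in either direction, which is 3.52%. Lower in dTAG13 were 167 of them, or 1.23% of genes, and 4 of the 10 members were among these (Pou3f2, Hes5, Rfx4 and Sox1). The same 4 had log2 fold changes below -1, as had 1.15% of genes. DESeq2 called 40 genes, of which 14 were lower in dTAG13 (0.103% of genes), and Rfx4 and Sox1 were in that group. A fit in edgeR that also held the replicate number as a block called 241 genes lower (1.77%), 6 of the members among them. Those are Sox1, Sox3, Sox21, Pou3f2, Rfx4 and Hes5. The labels do not say what a replicate number marks, and with 4 libraries that fit leaves little from which to estimate spread.

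**Figure D1:**
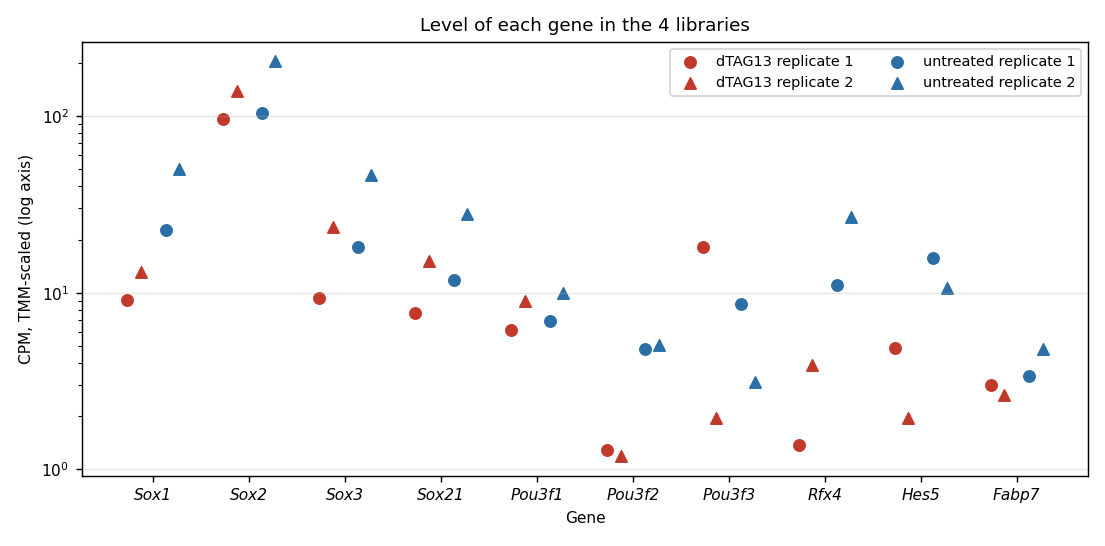
TMM-scaled CPM of the 10 genes (horizontal axis) in each library on a log axis, dTAG13 libraries in red left of untreated libraries in blue, circles for replicate 1 and triangles for replicate 2. Sox1, Pou3f2, Rfx4, Hes5 and Fabp7 have both red points below both blue points, while the points of Sox2, Sox3, Sox21, Pou3f1 and Pou3f3 overlap.

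Rfx4 had the largest difference of the 10. It was at 1.36 and 3.91 CPM in dTAG13 replicates 1 and 2, against 10.998 and 26.9 CPM in untreated replicates 1 and 2. The groups did not overlap, although replicate 2 was more than double replicate 1 in each. The means were 2.64 ± 1.80 CPM in dTAG13 and 18.9 ± 11.2 CPM in untreated gastruloids (SD, n = 2 each), so that untreated gastruloids had 7.18 times the dTAG13 level. The log2 fold change was -2.84 ± 0.69 (SE), with an adjusted p of 0.948 in edgeR and of 0.00381 in DESeq2. Within replicate number 1 the dTAG13 level was 0.124 of the untreated level, and within number 2 it was 0.145. The lowest value rested on 16 reads, whose 95% exact Poisson interval spans 0.780 to 2.22 CPM and covers counting error only. The nearer dTAG13 library, replicate 2, had 46 reads and an interval of 2.86 to 5.21 CPM. That of the nearer untreated library, replicate 1, was 9.29 to 12.9 CPM. Such intervals leave out the spread between replicates, so they do not test the difference between the groups.

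Among the SOXB1 genes, Sox1, the member most restricted to neural cells, had the largest difference. It was at 9.13 and 13.2 CPM in dTAG13 replicates 1 and 2, against 22.7 and 50.3 CPM in untreated replicates 1 and 2. The groups did not overlap, and the means were 11.1 ± 2.85 and 36.5 ± 19.5 CPM (SD, n = 2 each) in dTAG13 and untreated gastruloids. Its log2 fold change was -1.71 ± 0.44 (SE), with an adjusted p of 1.00 in edgeR and of 0.0250 in DESeq2.

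Sox3, which works alongside Sox1 and Sox2, was at 9.38 and 23.4 CPM in dTAG13 replicates 1 and 2, against 18.2 and 46.6 CPM in untreated replicates 1 and 2. The groups overlapped, since dTAG13 replicate 2 exceeded untreated replicate 1. Within replicate numbers the dTAG13 level was nonetheless 0.517 and 0.503 of the untreated level. The log2 fold change was -0.98 ± 0.69 (SE) and its adjusted p was 1.00 in edgeR. Sox21, the opposing SOXB2 gene, stood at 7.68 and 15.2 CPM in dTAG13 replicates 1 and 2 and at 11.8 and 27.9 CPM in untreated replicates 1 and 2. Its groups overlapped in the same way, with dTAG13 at 0.649 and 0.544 of untreated within numbers 1 and 2 and a log2 fold change of -0.79 ± 0.54 (SE, adjusted p = 1.00 in edgeR).

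Sox2 was the most abundant SOXB1 gene and had the smallest difference of the SOX members. It had 95.6 and 139 CPM in dTAG13 replicates 1 and 2, against 104 and 204 CPM in untreated replicates 1 and 2. The groups overlapped, and dTAG13 was at 0.923 and 0.682 of untreated within numbers 1 and 2. The log2 fold change of -0.39 ± 0.39 (SE, adjusted p = 1.00 in edgeR) turned to 0.18 without untreated replicate 2.

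The 3 POU genes had log2 fold changes of different size and sign, and the differences between them were not tested. Pou3f2 was at 1.28 and 1.19 CPM in dTAG13 replicates 1 and 2, against 4.82 and 5.07 CPM in untreated replicates 1 and 2, on 15 and 14 reads against 64 and 57 reads. Replicates lay close together and the groups stood apart, with means of 1.23 ± 0.0642 CPM in dTAG13 and 4.95 ± 0.177 CPM in untreated gastruloids (SD, n = 2 each). The log2 fold change of -1.99 ± 0.41 (SE) had the smallest adjusted p of any member in edgeR, 0.774, and DESeq2 gave 0.268. Within numbers 1 and 2 the dTAG13 level was 0.265 and 0.234 of the untreated level.

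Pou3f1, active in the epiblast as well as in neural tissue, was at 6.14 and 9.00 CPM in dTAG13 replicates 1 and 2, against 6.93 and 9.96 CPM in untreated replicates 1 and 2. The groups overlapped almost fully. Its log2 fold change was -0.16 ± 0.35 (SE, adjusted p = 1.00 in edgeR), and it turned positive without dTAG13 replicate 1 (0.09) and without untreated replicate 2 (0.13).

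Pou3f3 was at 18.1 and 1.95 CPM in dTAG13 replicates 1 and 2, against 8.59 and 3.11 CPM in untreated replicates 1 and 2. It was the only member higher in dTAG13 within number 1, at 2.11 times the untreated level, and it was at 0.627 of that level within number 2. Both number 1 libraries had more of it than either number 2 library. The log2 fold change of 0.77 ± 1.21 (SE, adjusted p = 1.00 in edgeR) was -1.58 without dTAG13 replicate 1. Pou3f4, the remaining gene of this class, had 0.853 and 1.10 CPM in dTAG13 replicates 1 and 2 and 1.43 and 1.25 CPM in untreated replicates 1 and 2.

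Hes5, the NOTCH effector, was at 4.86 and 1.95 CPM in dTAG13 replicates 1 and 2, against 15.7 and 10.7 CPM in untreated replicates 1 and 2. The groups did not overlap, and here replicate 1 was the higher in each group. The means were 3.41 ± 2.06 CPM in dTAG13 and 13.2 ± 3.53 CPM in untreated gastruloids (SD, n = 2 each), with a log2 fold change of -1.95 ± 0.48 (SE, adjusted p = 0.844 in edgeR and 0.0872 in DESeq2). Fabp7, the radial glia gene, was at 2.99 and 2.63 CPM in dTAG13 replicates 1 and 2, against 3.39 and 4.80 CPM in untreated replicates 1 and 2. Its groups did not overlap, yet the gap between the nearest libraries was small, and its log2 fold change was -0.54 ± 0.40 (SE, adjusted p = 1.00 in edgeR).

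**Figure D2:**
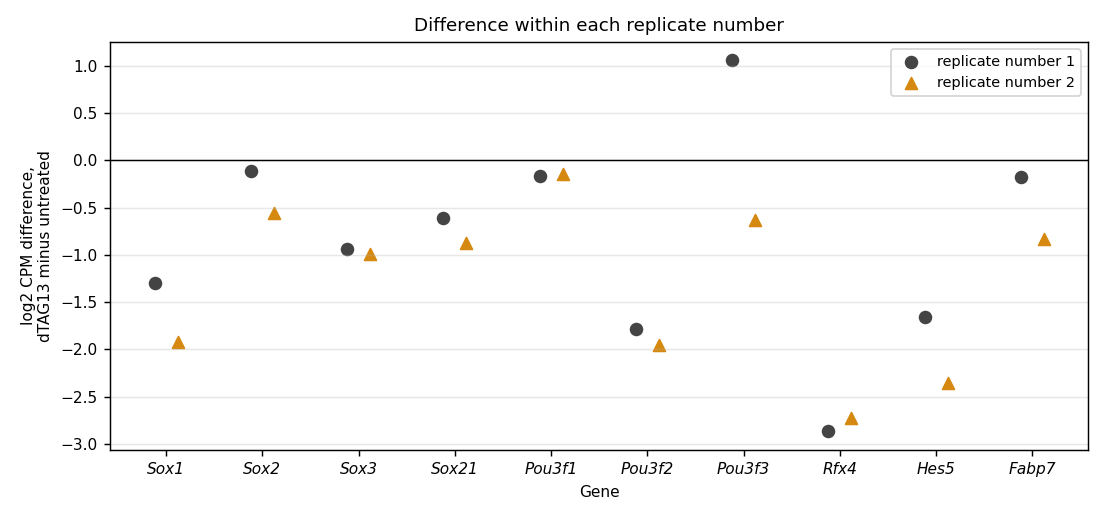
Difference in log2 CPM, dTAG13 minus untreated, within replicate number 1 (grey circles) and number 2 (orange triangles) for each gene, with a prior count of 2. All points lie below 0 except Pou3f3 in number 1, at 1.06, and Rfx4 is lowest in both numbers, at -2.87 and -2.73.

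Levels also differed between the replicate numbers. In dTAG13 libraries replicate 2 had 2.50 times the Sox3 of replicate 1, 2.86 times the Rfx4, 1.98 times the Sox21, 1.44 times the Sox1 and 1.45 times the Sox2. In untreated libraries these ratios of replicate 2 to replicate 1 were 2.57 for Sox3, 2.44 for Rfx4, 2.36 for Sox21, 2.21 for Sox1 and 1.97 for Sox2. Pou3f3 and Hes5 went the other way, with replicate 2 at 0.108 and 0.402 of replicate 1 in dTAG13 and at 0.363 and 0.681 of it in untreated libraries. The labels do not say that a number marks a shared culture or day. The median log2 difference of the 10 members, dTAG13 minus untreated, was -0.78 within number 1 and -0.93 within number 2.

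**Figure D3:**
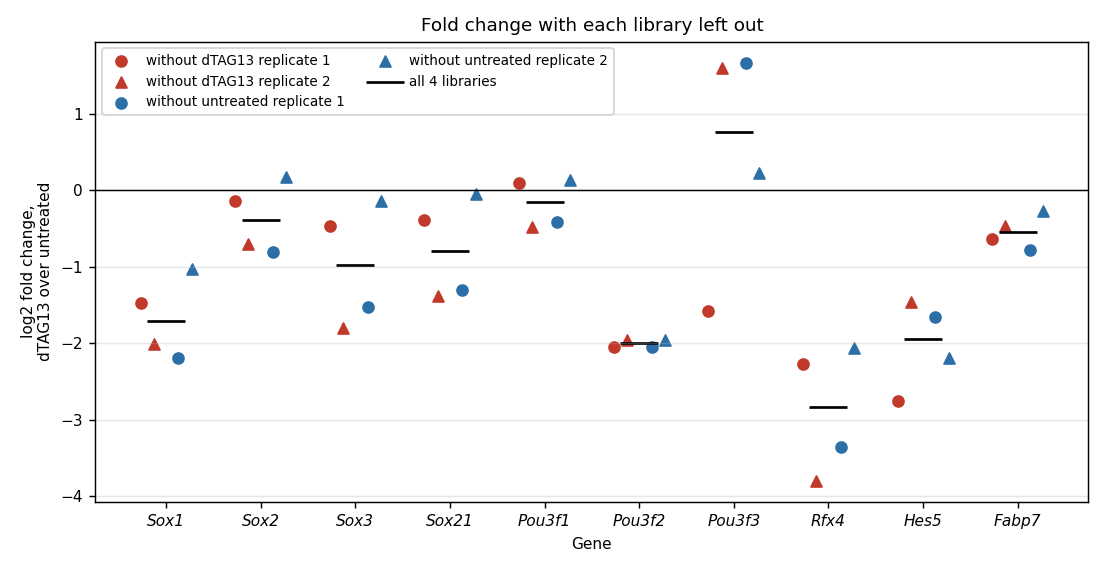
Log2 fold change of each gene, dTAG13 over untreated, by edgeR with all 4 libraries (black bars) and with each library left out (red for a dTAG13 library, blue for an untreated one). Pou3f2 stays between -2.05 and -1.96, Rfx4 between -3.80 and -2.06, and Sox2, Pou3f1 and Pou3f3 have points on both sides of 0.

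Leaving out each library in turn showed which values depend on 1 library. Without untreated replicate 2, the log2 fold change was -2.06 for Rfx4, -1.03 for Sox1, -0.14 for Sox3, -0.05 for Sox21 and -0.27 for Fabp7. Without dTAG13 replicate 2 it was -3.80 for Rfx4, -1.80 for Sox3 and -1.39 for Sox21, and Hes5 was at -1.46. Hes5 was at -2.75 without dTAG13 replicate 1, and Sox1 at -2.19 without untreated replicate 1. The number of members below untreated was 7 of 10 without untreated replicate 2 and 9 of 10 without any other library. The median of the 10 was -0.21 without untreated replicate 2 and -1.42 without dTAG13 replicate 2.

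Reads of the members were also set against Sox2 reads of the same library, a ratio that needs no scaling between libraries. This was chosen after the values were seen and is given as a description. Sox1 had 9.55 and 9.47 reads per 100 Sox2 reads in dTAG13 replicates 1 and 2, against 22.0 and 24.7 in untreated replicates 1 and 2. Replicates that differed in their Sox1 CPM were thus close on this ratio, and the groups stood apart. Rfx4 had 1.43 and 2.81 in dTAG13 replicates 1 and 2, against 10.6 and 13.2 in untreated replicates 1 and 2. Sox3 had 9.81 and 16.9 in dTAG13 replicates 1 and 2, against 17.5 and 22.9 in untreated replicates 1 and 2. Of the 9 members other than Sox2, 6 were lower per Sox2 read in both dTAG13 libraries than in either untreated library (Sox1, Sox3, Sox21, Pou3f2, Rfx4 and Hes5), a pattern found in 1.15% of all tested genes. All these ratios share the Sox2 count, so they are not independent of each other. Sox2 itself ran from 95.6 CPM in dTAG13 replicate 1 to 204 CPM in untreated replicate 2. A gene with even CPM over the libraries therefore could not show this pattern. The 1.15% is thus no neutral background, and whether the members stand out on this ratio was not tested. Pou3f1 had 6.42 and 6.48 reads per 100 Sox2 reads in dTAG13 replicates 1 and 2, against 6.69 and 4.89 in untreated replicates 1 and 2, and its groups overlapped.

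**Figure D4:**
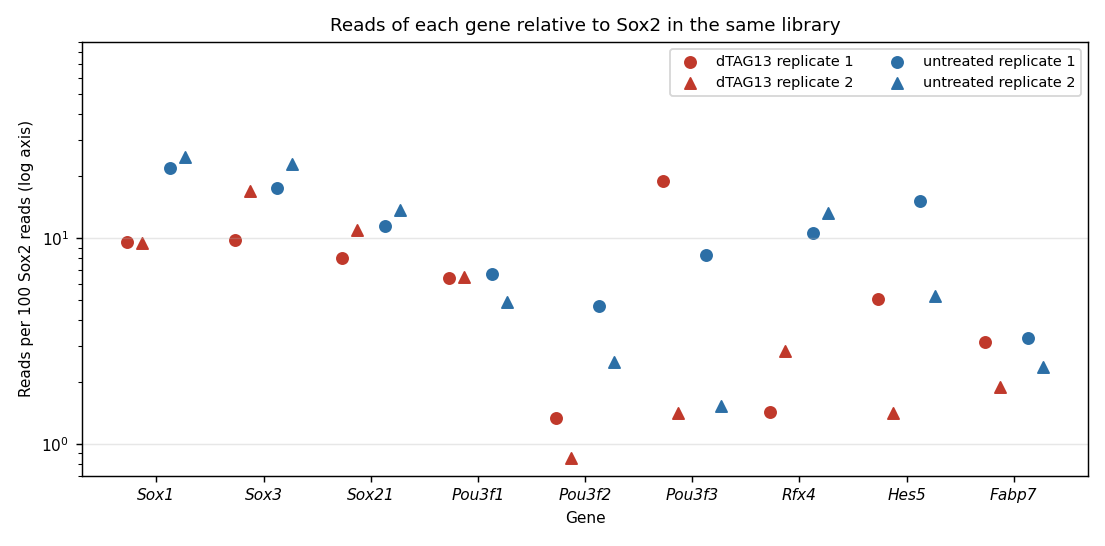
Reads of 9 genes per 100 Sox2 reads in the same library, on a log axis, with dTAG13 in red left of untreated in blue. Sox1 is at 9.55 and 9.47 in dTAG13 and at 22.0 and 24.7 in untreated libraries, and Pou3f1, Pou3f3 and Fabp7 overlap between the groups.

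Levels of different genes were compared per kilobase of exon in GENCODE M21, which may not be the annotation used for counting. Sox2 was highest in all 4 libraries, with 57.0 ± 14.9 CPM per kb in dTAG13 and 74.7 ± 34.5 CPM per kb in untreated gastruloids (SD, n = 2 each). In dTAG13 gastruloids it was followed by Sox3 (7.95 ± 4.81 CPM per kb), Sox21 (3.01 ± 1.40), Hes5 (2.50 ± 1.51), Sox1 (2.31 ± 0.590), Fabp7 (2.25 ± 0.1998), Pou3f1 (1.97 ± 0.525), Pou3f3 (1.35 ± 1.54), Rfx4 (0.558 ± 0.380) and Pou3f2 (0.221 ± 0.0115). Neighbours after Sox2 in that order lay within their spreads of each other. In untreated gastruloids Sox2 was followed by Sox3 (15.7 ± 9.75 CPM per kb), Hes5 (9.66 ± 2.59), Sox1 (7.56 ± 4.03), Sox21 (5.23 ± 3.00), Rfx4 (4.01 ± 2.38) and Fabp7 (3.28 ± 0.800). Neighbours from Sox3 to Fabp7 again lay within their spreads of each other. Pou3f1 (2.19 ± 0.558 CPM per kb), Pou3f2 (0.885 ± 0.0317) and Pou3f3 (0.790 ± 0.522) came last.

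Within the SOXB1 trio, Sox2 made up 87.8% and 82.8% of the summed CPM per kb in dTAG13 replicates 1 and 2, against 78.9% and 75.0% in untreated replicates 1 and 2. Sox1 made up 3.57% and 3.34% in dTAG13 replicates 1 and 2, against 7.37% and 7.88% in untreated replicates 1 and 2. The shares of Sox1 and Sox2 therefore did not overlap between the groups, while that of Sox3 did, at 8.59% and 13.9% in dTAG13 and 13.8% and 17.1% in untreated libraries. Shares of a library add up to the whole, so a higher Sox2 share follows from lower shares of the others. In CPM, Sox2 itself was at 0.923 and 0.682 of untreated within numbers 1 and 2. These shares draw on the same counts as the ratio to Sox2 reads and were not computed for other genes.

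**Figure D5:**
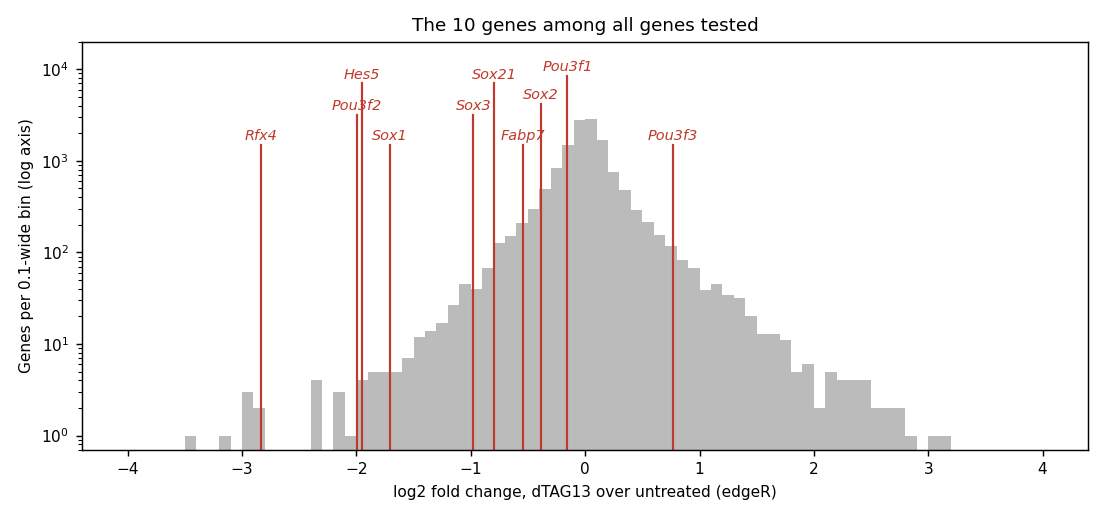
Number of genes (log axis) by log2 fold change, dTAG13 over untreated, for all 13602 tested genes in grey, with the 10 genes as red lines. Rfx4, Pou3f2, Hes5 and Sox1 lie below -1, as do 1.15% of genes, and Pou3f3 alone lies above 0.

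Further neural progenitor genes, from a list without the 10 members, were mostly lower in dTAG13 as well. Of 21 measured, 19 had a log2 fold change below 0 (49.1% of all tested genes), with a median of -0.79 beside 0.00 over all genes. In edgeR 0 passed over all genes (0% of genes), and DESeq2 called 2 lower, Ptn and Irx3 (0.103% of genes). Ptn, a secreted growth factor, had 69.6 and 61.6 CPM in dTAG13 replicates 1 and 2, against 127 and 109.7 CPM in untreated replicates 1 and 2. Irx3, which encodes a neural tube homeodomain factor, had a log2 fold change of -1.02 ± 0.21 (SE, adjusted p = 0.774 in edgeR). Pax6, a paired box gene of the neural tube that was singled out once its level was known, had 1.19 and 3.31 CPM in dTAG13 replicates 1 and 2, against 5.27 and 17.6 CPM in untreated replicates 1 and 2. In bulk samples such as these, fewer neural cells and less RNA per neural cell cannot be told apart.

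Other genes of the SOX, POU, RFX and FABP families were split between higher and lower. These lists were not limited to genes of non-neural tissues. Among other SOX genes 5 of 12 measured were lower, with a median log2 fold change of 0.15. Sox9 was higher in dTAG13 without overlap of the groups. It had 70.2 and 50.5 CPM in dTAG13 replicates 1 and 2, against 39.6 and 29.5 CPM in untreated replicates 1 and 2. Other POU genes had a median of -0.20 with 6 of 9 lower, and Pou5f1, the pluripotency factor OCT4, had 72.1 and 142 CPM in dTAG13 replicates 1 and 2 and 63.4 and 82.5 CPM in untreated replicates 1 and 2. Other RFX genes and their partner subunits had a median of -0.02 with 5 of 8 lower, and of the other FABP genes only Fabp3 and Fabp5 were measured, with log2 fold changes of 0.40 and 0.00. No gene of these lists passed in edgeR or DESeq2.

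The NOTCH pathway, which drives Hes5, had a median log2 fold change of -0.07, with 14 of 21 measured genes lower and 0 called in edgeR or DESeq2. Its ligand Dll1 had 89.7 and 60.3 CPM in dTAG13 replicates 1 and 2, against 109.9 and 127 CPM in untreated replicates 1 and 2. Lfng, which modifies the receptors, had a log2 fold change of -0.67 ± 0.25 (SE, adjusted p = 1.00 in edgeR). Hes1, a NOTCH target shared by many tissues and chosen with its level in view, had 65.4 and 73.3 CPM in dTAG13 replicates 1 and 2, against 55.1 and 68.0 CPM in untreated replicates 1 and 2. Of the other HES genes, 3 of 4 measured were lower. Hes7, the repressor of the segmentation clock, had a log2 fold change of -0.70 ± 0.20 (SE, adjusted p = 0.948 in edgeR), and Hes3, known in neural progenitors, had one of -1.62 ± 1.01 (SE, adjusted p = 1.00 in edgeR).

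Markers of other cell types moved alongside these genes, and their part in the results was not tested. Over all tested genes 50.9% had a log2 fold change above 0, DESeq2 called 0.191% higher, and 2.29% were higher at an unadjusted p under 0.05 in edgeR. Gut endoderm markers were higher in 10 of 11 measured, with summed levels of 609 and 812 CPM in dTAG13 replicates 1 and 2, against 415 and 351 CPM in untreated replicates 1 and 2, and Afp was at 0 reads throughout. DESeq2 called 2 of them higher, the keratin genes Krt8 and Krt18. Most of these sums came from Krt8, Krt18 and Epcam. In dTAG13 replicates 1 and 2 they had 133 and 226, 129 and 197, and 161 and 268 CPM. In untreated replicates 1 and 2 they had 71.7 and 63.8, 82.0 and 72.1, and 94.3 and 130 CPM, in the same order. Sox17 overlapped between the groups, at 22.7 and 16.5 CPM in dTAG13 and 19.6 and 13.5 CPM in untreated replicates 1 and 2. Epcam and Sox17 were picked with their values known. Surface ectoderm and placode markers were higher in 8 of 9 measured, with sums of 269.7 and 471 CPM in dTAG13 replicates 1 and 2, against 177 and 221 CPM in untreated replicates 1 and 2, and none was at 0. DESeq2 called 1 of them higher, the homeobox gene Dlx5. Pluripotency markers were higher in 16 of 17, with sums of 1489.5 and 1995 CPM in dTAG13 replicates 1 and 2, against 1322 and 1638 CPM in untreated replicates 1 and 2, and DESeq2 called 0. EdgeR called 0 in each of these 3 lists over all genes, and at an unadjusted p under 0.05 it had 5 gut endoderm, 2 surface ectoderm and 3 pluripotency genes higher. Both lists of non-neural epithelium and the pluripotency list were mostly higher, whereas the neural progenitor genes were mostly lower. Why they differed was not tested.

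Somite markers, which check the label of these gastruloids, were present in each library and lower in dTAG13 in 10 of 11 measured. Over all tested genes 49.1% had a log2 fold change below 0. The median log2 fold change of the somite list was -0.72, beside -0.89 for the members. Summed somite levels were 332 and 205 CPM in dTAG13 replicates 1 and 2, against 479 and 323 CPM in untreated replicates 1 and 2. Markers of neuromesodermal progenitors, the cells that give rise to posterior neural tube and somites, were lower in 7 of 11, with sums of 385 and 619 CPM in dTAG13 replicates 1 and 2, against 414 and 813 CPM in untreated replicates 1 and 2. Genes of differentiating neurons were lower in 6 of 11 measured and summed to 91.0 and 125 CPM in dTAG13 replicates 1 and 2, against 89.1 and 118 CPM in untreated replicates 1 and 2. Neural crest markers were lower in 4 of 7 measured, with a median log2 fold change of -0.07. Their sums were 133 and 129.8 CPM in dTAG13 replicates 1 and 2, against 111 and 72.1 CPM in untreated replicates 1 and 2. A large part of these sums came from Erbb3 alone. It had 59.1 and 86.4 CPM in dTAG13 replicates 1 and 2, against 28.2 and 35.1 CPM in untreated replicates 1 and 2. Of its defining genes Foxd3 was at 0 reads in every library, and Sox10 stayed between 0.255 and 0.452 CPM. DESeq2 called 1 neural crest gene higher, the receptor gene Erbb3, and edgeR called 0 over all genes and had 2 higher at an unadjusted p under 0.05. Neither tool called a somite, neuromesodermal or neuron gene over all genes. At an unadjusted p under 0.05 edgeR had 5 somite genes and 1 neuron gene lower, beside 1.23% of all tested genes. The genes named here for their DESeq2 call were chosen after their values were seen.

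The 5 genes whose pattern over the 4 libraries came closest to the median pattern of the members, among 13452 genes compared, were Tmem132c, Ncam1, Irx3, Vgf and Slitrk5. Likeness was the root mean square difference of centred log2 CPM, which was 0.0771 for Tmem132c and 0.0847 for Slitrk5. Ncam1, the neural cell adhesion molecule, had 193 and 204 CPM in dTAG13 replicates 1 and 2, against 285 and 513 CPM in untreated replicates 1 and 2. With 4 libraries many genes can share a pattern, so this is a description.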

How the data were processed

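RNA of somitic gastruloids was sequenced after ribosomal RNA depletion (KAPA RNA HyperPrep with RiboErase, per the labels' protocols). The submitters' processing notes name HTSeq 0.12.4, STAR 2.7.6a, DESeq2 1.34.0 and fastp 0.20.1 but not their roles, and 2 names of the build, mm10 and GRCm38.p6. No source used here gives the annotation or strand setting of the counting. Each deposited table holds raw read counts per gene symbol for 1 library, and its HTSeq summary lines entered neither library sizes nor tests. Shares of reads outside genes are of all reads in a table.

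The members and gene lists were chosen with earlier results of these data known. All genes were fitted in edgeR 4.0.16 (R 4.3.3): filterByExpr (minimum count 10, minimum total 15), TMM, estimateDisp, glmQLFit (robust) and a two-sided glmQLFTest with the group as only term, Benjamini-Hochberg adjustment over 13602 genes and a threshold of 0.05. The biological coefficient of variation was 21.7%. SE is the size of the log2 fold change over the root of F. Log2 CPM used a prior count of 2. DESeq2 1.42.0 was an alternative. Same-group replicates were not 1 library deposited under both names (chi-square over its degrees of freedom: 30.9 for dTAG13, 36.3 for untreated). The fitting code was first tried on simulated counts without any difference between replicate numbers, which says nothing about the results given here. All 10 members were named by rule; from other lists the 2 genes of smallest p could be named.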

Additional observations from a re-analysis of the deposited data

How the results depend on the processing

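RLE, upper quartile or no scaling factors, no filter on low counts, at least 50 counts in 2 libraries, and omission of mitochondrial and the 50 highest genes left the direction of every member measured and the edgeR counts of 0 as they were; the filter at 50 counts left out Fabp7. DESeq2 called 40 genes and 2 members (Sox1 and Rfx4). In a fit with a replicate block, edgeR called 636 genes, 395 higher and 241 lower (1.77% of genes), and 6 members were lower: Rfx4, Sox1, Hes5, Sox3, Pou3f2 and Sox21. Same-numbered libraries deviated together (correlation of 0.63 over genes). With 2 pairs and no label on what a number means, what these libraries share beyond the number is not known. With each library left out, the median log2 fold change of members ranged from -1.42 to -0.21, that of Sox2 from -0.81 to 0.18, that of Pou3f1 from -0.48 to 0.13 and that of Pou3f3 from -1.58 to 1.67; the causes were not tested. At 14 to 64 reads a library, Pou3f2 is limited by counting error, as are Fabp7 at 31 to 54 reads and Rfx4 in dTAG13 replicate 1.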
